A study of Homo sapiens with 3 samples.

Results

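The junction genes examined here were 10 of the 58051 genes listed in the count files of H9 cells, an established human embryonic stem cell line. They were taken by name, by a rule that uses no measured value, and comprise the cadherin genes CDH1, CDH2 and CDH3, the adhesion gene EPCAM and the claudin genes CLDN3, CLDN4, CLDN5, CLDN6, CLDN7 and CLDN10. Each of the 10 names matched exactly 1 Ensembl identifier. The samples used here form 1 group of 3 replicates (replicates 1, 2 and 3), all wild-type, untreated H9 cells grown on plates coated with Vitronectin-XF, with Essential 8 Flex as the medium. Total RNA was sequenced after removal of ribosomal RNA, and the study used the resulting expression levels to sort genes before it compared DNA breaks at their start and splice sites. The replicates differ in no labelled condition, cell type or time, so that levels can be compared between genes and between libraries but not between treatments. The labels do not state whether the replicates were separate cultures, and every SD below measures the spread between these 3 libraries.

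Cadherins are calcium-dependent adhesion proteins whose outer domains bind the same cadherin on the next cell and whose inner tails bind catenins, which link them to actin. Claudins are 4-pass membrane proteins that form the strands of tight junctions, and the claudins that a cell makes set which ions and solutes pass between cells. EPCAM is a membrane protein of epithelia that binds claudin-7 and is a common surface marker of undifferentiated human embryonic stem cells. These cells grow as tight epithelial colonies, and loss of E-cadherin with gain of N-cadherin is a textbook feature of the epithelial to mesenchymal transition.

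Levels were compared in TPM, a unit in which the count of a gene is divided by the summed length of its exons and scaled to the same total in each library. The 10 genes spanned CLDN6, at 1391 ± 71.4 TPM (SD, n = 3, as for every ± below), down to CLDN5, at 0.232 ± 0.123 TPM. CLDN6 was at rank 55 of 19629 protein-coding genes. By the rule of the study, which calls a gene below 0.01 TPM nonexpressed and cuts the others into 3 quantiles (here at 3.35 and 26.96 TPM among protein-coding genes), 6 of the 10 genes were in the high class, against 28.8% of all protein-coding genes. These were CLDN6, CDH1, EPCAM, CLDN7, CDH3 and CDH2. CLDN10, CLDN4 and CLDN3 were in the medium class and CLDN5 was in the low class. At least 1 TPM was reached by 9 of the 10 genes, against 67.4% of protein-coding genes, and 9 of the 10 had more than 3 counts in every replicate, against 71.9%. The median of the 10 genes was 95.01 TPM and that of all protein-coding genes was 7.10 TPM. The genes were named for their known role in epithelia and pluripotent cells, and the rule was chosen with earlier results of these data known. These shares thus describe the list and say nothing particular about junction genes.

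**Figure D1:**
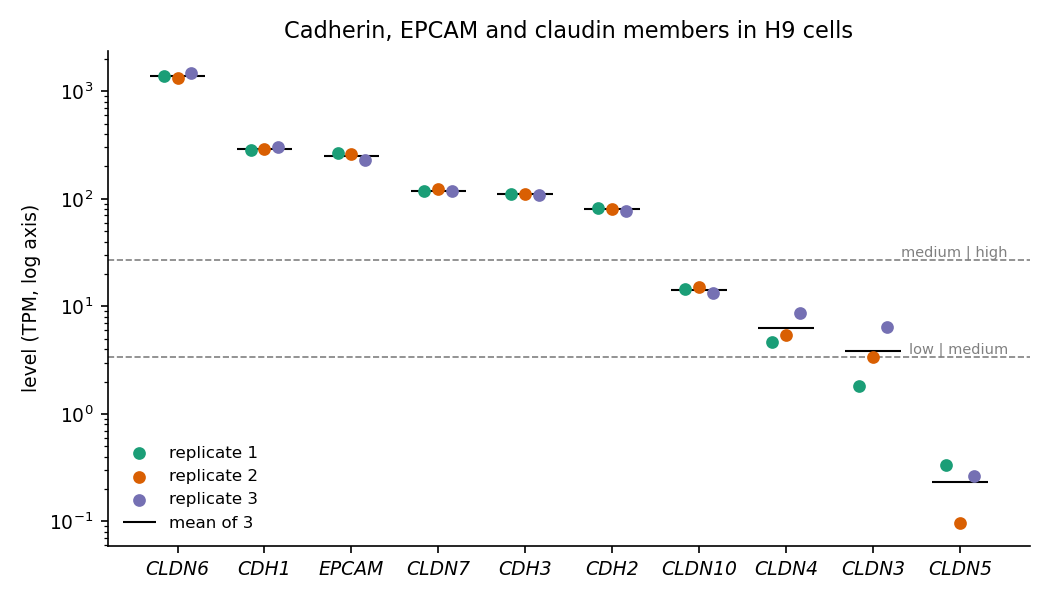
Level of each of the 10 genes in each replicate (points, TPM on a log axis), with the mean of the 3 replicates (black bars) and the boundaries of the expression classes at 3.35 and 26.96 TPM (dashed lines). CLDN6 lies at 1329 TPM or more in every replicate, 5 further genes lie between 76.3 and 301 TPM, and the points of CLDN4, CLDN3 and CLDN5 are the most spread.

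The order of the mean levels was CLDN6, CDH1, EPCAM, CLDN7, CDH3, CDH2, CLDN10, CLDN4, CLDN3 and CLDN5. Among the 9 pairs of neighbors in this order, only CLDN4 and CLDN3 had ranges that overlapped between replicates, and their means differed by 2.39 TPM with an SD of 2.32 TPM for CLDN3. CLDN7 was above CDH3 in every replicate, by 1.07- to 1.10-fold, which is the smallest gap among the neighbors without overlap. No test was made of these pairs, since an exact permutation test of 3 values against 3 cannot go below p = 0.10. The order depends on the length assigned to a gene. The exons of all annotated transcripts were merged for the main values, and with the length of the canonical transcript EPCAM, at 238 ± 17.7 TPM, was above CDH1, at 222 ± 7.58 TPM, and CDH2, at 103 ± 3.79 TPM, was above CDH3, at 95.6 ± 0.515 TPM. This choice lowered the median protein-coding gene of at least 1 TPM by 0.23 on the log2 scale, while CDH2 moved by 0.37 and CLDN4 by 0.74. With the longest transcript, EPCAM, at 297 TPM, was again above CDH1, at 277 TPM. CDH2, at 128 TPM, was again above CDH3, at 119 TPM, and CLDN7, at 116 TPM, was below both. CLDN6 remained the highest and CLDN10, CLDN4, CLDN3 and CLDN5 the 4 lowest, in the same order, with all 3 lengths.

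CDH1 encodes E-cadherin, the main cadherin of epithelial adherens junctions. It lies on chromosome 16 (GRCh38, 68737292 to 68835537, plus strand) and had 4501, 5306 and 4064 counts in replicates 1, 2 and 3. Its levels were 285, 289 and 301 TPM, with a mean of 291 ± 8.77 TPM. The 3 libraries lay close together, with a coefficient of variation of 3.01%. CDH3 encodes P-cadherin, known from placenta and basal epithelia, and lies on the same strand upstream of CDH1 (68636189 to 68727468), with 9823 bases between the genes. Its counts of 1833, 2152 and 1554 gave 110, 111 and 110 TPM, and its coefficient of variation of 0.787% was the lowest of the 10 genes. CDH1 was 2.64 ± 0.0941 times as high as CDH3, its neighbor on the chromosome.

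CDH2 encodes N-cadherin, known from neural and mesenchymal cells, and lies on chromosome 18 (27932879 to 28177946, minus strand). It had 1849, 2079 and 1454 counts, or 82.8, 80.0 and 76.3 TPM, with a mean of 79.7 ± 3.23 TPM. It was thus in the high class together with CDH1, at rank 2109 of the protein-coding genes against rank 420 for CDH1. The ratio of CDH1 to CDH2 was 3.44, 3.61 and 3.95 in replicates 1, 2 and 3. Of the summed TPM of these 3 cadherins, CDH1 held 60.5 ± 1.18%, CDH3 22.9 ± 0.377% and CDH2 16.6 ± 0.840%. The merged exons of CDH2 measure 8583 bases against 4016 for its canonical transcript, and with canonical lengths the CDH1 share was 52.8%. Bulk RNA cannot tell cells that hold both cadherins from a mixture of cells with either.

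EPCAM lies on chromosome 2 (47345158 to 47387601, plus strand). Its counts were 1668, 1919 and 1232, which gave 264, 261 and 228 TPM and a mean of 251 ± 19.6 TPM. Replicate 3 was below both other libraries. A processed pseudogene on chromosome 4 shares 336 bases with EPCAM at 95.2% identity, and no read was counted on it in any replicate. The membrane protease ST14 (matriptase), which is known to cleave EPCAM, had 52.6 ± 5.02 TPM, and its inhibitors SPINT1 and SPINT2 had 146 ± 2.34 and 85.2 ± 3.46 TPM.

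CLDN6, a claudin of embryonic epithelia that is largely silent in adult tissues, had 6228, 6994 and 5671 counts, or 1376, 1329 and 1469 TPM. It lies on chromosome 16 (3014712 to 3020071, minus strand). It held 90.6 ± 0.458% of the summed TPM of the 6 claudins named above, and 88.3% with canonical lengths. A processed pseudogene on chromosome 1 shares 663 bases with CLDN6 at 96.2% identity, and 1, 0 and 0 reads were counted on it. CLDN7, which encodes the claudin that binds EPCAM, followed, with 768, 921 and 650 counts, or 118, 122 and 118 TPM. It lies on chromosome 17 (7259903 to 7263983, minus strand) and its mean was 119 ± 2.45 TPM. CLDN6 was 11.7 ± 0.811 times as high as CLDN7, and EPCAM was 2.103 ± 0.145 times as high.

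CLDN10, known for the ion-selective pores of kidney and gland epithelia, lies on chromosome 13 (95433604 to 95579759, plus strand) and had 127, 155 and 100 counts, or 14.4, 15.1 and 13.3 TPM. Of its exon length, 46.0% lies over exons on the opposite strand, and 1558 bases are shared with DZIP1, which had 580, 651 and 441 counts. Whether the counting used the strand of reads is not given in the sources used here, and the part of DZIP1 reads in the CLDN10 counts was not tested. No read was counted on the antisense gene CLDN10-AS1. The 46.0% overlap was the largest of the 10 genes, the other 9 having from 0 to 8.40% of their exon length over the opposite strand.

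CLDN4 and CLDN3, barrier claudins of many adult epithelia, are divergent neighbors on chromosome 7, with 29271 bases between them. CLDN4 (73799542 to 73832690, plus strand) had 57, 77 and 90 counts, or 4.66, 5.41 and 8.63 TPM. CLDN3 (73768997 to 73770270, minus strand) had 6, 13 and 18 counts, or 1.81, 3.37 and 6.37 TPM. For both genes replicate 3 was the highest although it was the smallest library. CLDN3 is a gene of few counts, and the exact Poisson 95% interval of its level was 0.664 to 3.94 TPM in replicate 1 and 3.77 to 10.1 TPM in replicate 3. CLDN6 was 237 ± 62.9 times as high as CLDN4, with ratios of 295, 245 and 170 in the 3 replicates. These ratios rest on merged exons, which measure 4699 bases for CLDN4 against 1695 for its canonical transcript. With canonical lengths CLDN6 had 1069 ± 59.1 TPM and CLDN4 10.4 ± 3.58 TPM, so that the ratio was much lower.

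CLDN5, the main claudin of vascular endothelium, lies on chromosome 22 (19523024 to 19527545, minus strand) and had 3, 1 and 2 counts, or 0.336, 0.0964 and 0.263 TPM. None of these exceeds the 3 counts that a count of 0 allows, which are worth 0.289 to 0.394 TPM for this gene. CLDN5 was thus near the floor at this depth, and no background was measured. These intervals and limits cover counting error only, and PCR duplicates make reads depend on each other.

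To show where the claudin genes start and which short motifs lie there, the 250 bases before annotated start sites were read from RefSeq on GRCh38.p14. Entries were found for 6 of the 10 genes (CDH2, CLDN3, CLDN4, CLDN6, CLDN7 and CLDN10), with 9 start sites in all, and not for CDH1, CDH3, EPCAM and CLDN5. They were searched on both strands for the E-box CAGGTG, which reads CACCTG on the other strand and is the sequence that repressors of the SNAI and ZEB families are known to bind, and for the GC box GGGCGG, which reads CCGCCC on the other strand and which SP1 is known to bind. An E-box was present in 17.5% and a GC box in 42.6% of 35116 promoter entries of this length. The start of CLDN7 at position 7262478 of chromosome 17 had 4 E-boxes, as many or more than which were present in 0.122% of all entries, and the 8 other start sites of these genes had none. The 30-base stretches around the CLDN7 E-boxes (capitals) are shown because no other start site of these genes had this motif, and each also lies in the untranslated region of a longer annotated CLDN7 transcript.
CLDN7, chr17:7262635-7262664, minus strand: tttcttcctcctCACCTGggcaaggagggg
CLDN7, chr17:7262596-7262625, minus strand: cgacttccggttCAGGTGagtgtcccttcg
CLDN7, chr17:7262481-7262510, minus strand: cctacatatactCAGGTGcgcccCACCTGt

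The promoters of the highest claudin and of the divergent low pair are shown for comparison, with GC boxes in capitals. CLDN6 had 2 GC boxes and a GC content of 68.0% in this window, CLDN3 had 4 and 71.6%, and CLDN4 had 1 and 58.8%, against a median GC content of 58.0% over all entries. GC boxes were thus present at both CLDN6, at 1391 TPM, and CLDN3, at 3.85 TPM. CLDN3 is given over the whole window and the others as 30 bases, since the windows of CLDN6 and CLDN4, the stretches shown included, lie in untranslated regions of longer annotated transcripts. A match of letters is not a binding site, and binding was not measured.
CLDN6, chr16:3018227-3018256, minus strand: gcccctcctccgGGGCGGtggtccagtgac
CLDN6, chr16:3018184-3018213, minus strand: taagacccccgcctCCGCCCctgtcccgac
CLDN4, chr7:73830937-73830966, plus strand: ctccctctgcccCCGCCCctctgccagagc
CLDN3, chr7:73770271-73770520, minus strand: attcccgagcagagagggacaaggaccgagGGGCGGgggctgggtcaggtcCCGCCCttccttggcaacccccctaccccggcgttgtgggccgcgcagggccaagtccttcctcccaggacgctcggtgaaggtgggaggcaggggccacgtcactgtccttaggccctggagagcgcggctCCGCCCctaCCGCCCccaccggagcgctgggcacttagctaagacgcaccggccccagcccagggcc

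Within their gene families, the named genes, which were chosen with earlier results of these data known, held most of the signal. Of 23 protein-coding cadherin genes (CDH followed by a number), CDH1, CDH3 and CDH2 were the 3 highest and the only ones in the high class, and they held 87.5 ± 0.811% of the summed TPM of the family. The next were CDH24, at 23.5 ± 1.97 TPM, CDH4 (R-cadherin), at 15.9 ± 0.292 TPM, and CDH6 (K-cadherin), at 10.1 ± 1.60 TPM. Of the 20 other cadherins, 4 were in the medium class, 15 in the low class and 1 (CDH16) was nonexpressed, with a median of 0.694 TPM. Vascular cadherin, CDH5, had 3, 2 and 0 counts.

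Of 24 protein-coding claudin genes, CLDN6 alone held 86.1 ± 0.714% of the summed TPM and the 6 named claudins 95.1 ± 0.373%. Of the 18 others, 1 was in the high class, 4 in the medium class, 8 in the low class and 5 nonexpressed, namely CLDN2, CLDN8, CLDN14, CLDN17 and CLDN25, on which no read was counted. CLDN12, a claudin without the usual PDZ-binding tail, was the highest of these, at 33.9 ± 2.11 TPM, above 4 of the 6 named claudins. Of its exon length, 17.6% lies over exons of other genes on its own strand, and the effect on its counts was not tested. CLDN22 had 12.2 ± 1.41 TPM, and 100% of its exon length lies over exons on the opposite strand, and the part of reads from that strand was not tested. CLDN1, the barrier claudin of epidermis, had 9.65 ± 1.54 TPM. CLDN9 ends 206 bases from the end of CLDN6 on the opposite strand and had 8, 15 and 17 counts, or 3.30 ± 1.46 TPM, 421-fold below CLDN6.

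**Figure D2:**
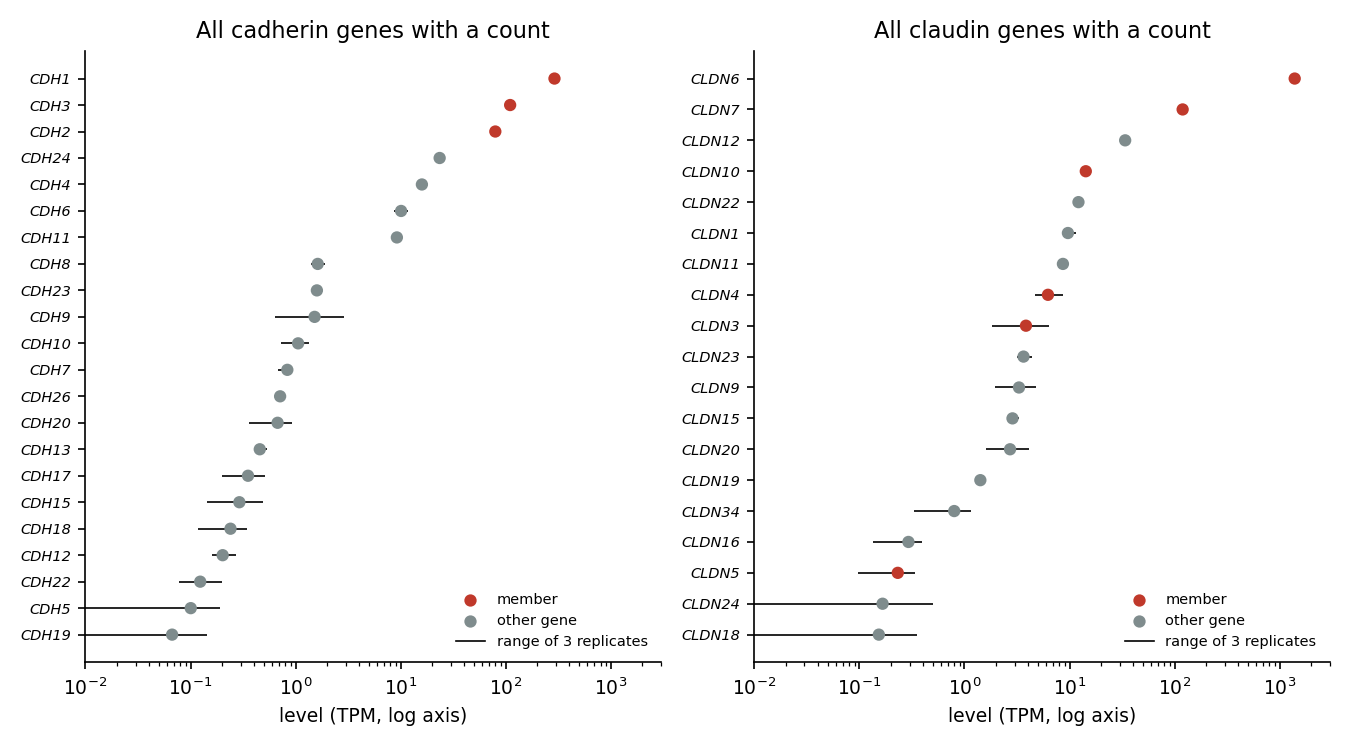
Mean level (points, TPM on a log axis) of every cadherin gene (left) and claudin gene (right) with at least 1 count, with the range of the 3 replicates (lines, which run to the left edge where a replicate had no count). The named genes are red and others grey. CDH1, CDH3 and CDH2 lead the cadherins at 291, 110 and 79.7 TPM, and CLDN6 stands 11.7-fold above CLDN7, while 1 cadherin and 5 claudin genes without a count are not drawn.

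Catenins tie cadherins to the cytoskeleton, and nectins are adhesion proteins of the same junctions. Of 12 catenin and nectin adhesion genes, 9 were in the high class, 1 in the medium and 2 in the low class, with a median of 102 TPM. CTNNB1 (β-catenin) had 288 ± 6.08 TPM and CTNNA1 (α-catenin), which joins β-catenin to actin, 224 ± 4.198 TPM, both of the order of CDH1. The ranges of CTNNB1 (282 to 294 TPM) and CDH1 (285 to 301 TPM) overlapped. These comparisons use merged exon lengths. The merged exons of CTNNB1 and CTNNA1 measure 11759 and 8830 bases, against 3661 and 3754 for their canonical transcripts. Those of CDH1 measure 6076 against 4811, so that canonical lengths would raise both catenins above CDH1. The likeness of their levels to that of CDH1 thus holds for merged lengths only. Vinculin (VCL) had 209 ± 10.7 TPM and plakoglobin (JUP) 130 ± 14.8 TPM. The neural catenins CTNND2 and CTNNA2 were lower, at 8.97 ± 0.272 and 2.18 ± 0.433 TPM, and NECTIN4 had 5, 2 and 0 counts.

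Of 11 partners of claudins in tight junctions, 7 were in the high class, 3 in the medium and 1 in the low class, with a median of 37.8 TPM. The scaffold TJP1 (ZO-1) had 149 ± 8.78 TPM, F11R (JAM-A) 109 ± 6.98 TPM, and the cytoplasmic plaque proteins CGNL1 and CGN 84.1 ± 2.27 and 78.5 ± 1.87 TPM. Of the exon length of F11R, 36.6% lies over exons of other genes on its own strand, and the effect on its counts was not tested. Occludin (OCLN), a membrane protein of tight junctions, is named here after its values were seen and had 32.8 ± 1.43 TPM. TJP3 (ZO-3) had 8.11 ± 2.55 TPM and JAM2, known from endothelium, had 2.07 ± 0.178 TPM. None of the 11 partners exceeded the 149 TPM of TJP1, whereas CLDN6 had 1391 TPM.

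Among 12 desmosome genes, 4 were in the high, 1 in the medium, 5 in the low and 2 in the nonexpressed class. The high ones were DSG2, the widely expressed desmoglein, at 149 ± 6.30 TPM, DSP (desmoplakin, which ties desmosomes to intermediate filaments) at 118 ± 3.28 TPM, PKP4 at 48.4 ± 2.34 TPM and DSC2 at 48.1 ± 0.582 TPM. The epidermal isoforms DSG1 and DSG4 had no count, DSG3 had 1, 3 and 0, and PKP1 0, 1 and 0 counts. All 11 polarity genes examined were in the high or medium class (6 and 5), from PRKCI, the atypical protein kinase C of the PAR complex, at 140 ± 10.03 TPM, to PARD6A at 11.1 ± 1.02 TPM.

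**Figure D3:**
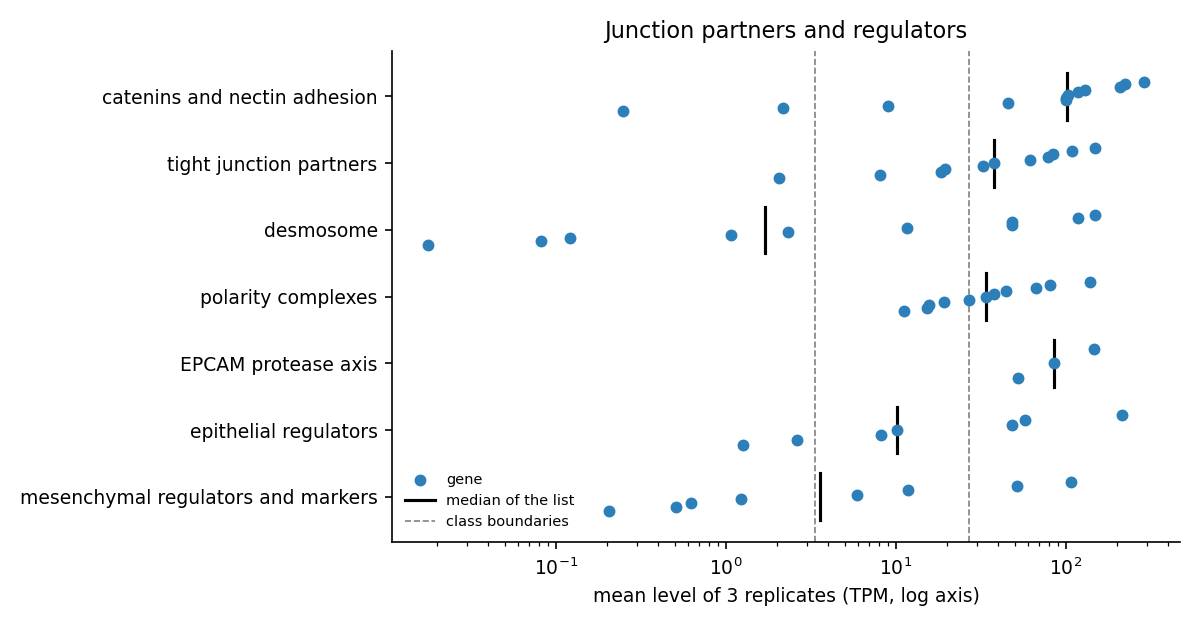
Mean level over the 3 replicates (points, TPM on a log axis) of the genes in 7 lists of junction partners and regulators, with the median of each list (black bars) and the boundaries between low, medium and high expression at 3.35 and 26.96 TPM (dashed lines). Catenins and nectins have the highest median, 102 TPM, and the desmosome and mesenchymal lists the lowest, 1.69 and 3.59 TPM, while 2 desmosome genes at 0 are not drawn.

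Regulators known to act on these junction genes were listed on both sides of the epithelial to mesenchymal transition. Of 7 epithelial regulators, 3 were in the high, 2 in the medium and 2 in the low class. The splicing factors ESRP1 and ESRP2 had 215 ± 11.8 and 48.5 ± 3.55 TPM, and GRHL2, a transcription factor known to activate CDH1 and CLDN4, had 57.7 ± 4.56 TPM. OVOL1 had 10.1 ± 1.28 TPM and GRHL3 1.27 ± 0.200 TPM. Of 8 mesenchymal genes, 2 were in the high, 2 in the medium and 4 in the low class. The high ones were VIM (vimentin), at 108 ± 2.43 TPM, and FN1 (fibronectin), at 51.6 ± 1.43 TPM. Among the repressors that bind E-boxes, SNAI1 had 11.8 ± 1.30 TPM, ZEB1 1.24 ± 0.169 TPM, ZEB2 0.624 ± 0.235 TPM and SNAI2 0.507 ± 0.0406 TPM. TWIST2 had 5.93 ± 1.17 TPM and TWIST1 0, 1 and 2 counts. Thus CDH2, VIM and FN1 were in the high class in the same libraries as CDH1, ESRP1, ESRP2 and GRHL2. SNAI1 and TWIST2 were in the medium class, and ZEB1, ZEB2, SNAI2 and TWIST1 in the low class.

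The labelled cell type was checked against markers. All 8 pluripotency markers were in the high class, from 259 to 2576 TPM, and their summed level was 6707 to 6860 TPM. With merged exon lengths, CLDN6 was above 7 of these 8 and below LIN28A, which had 2576 ± 64.7 TPM. The marker next below CLDN6 was DNMT3B, at 1200 TPM. The merged exons of DNMT3B measure 6876 bases against 4336 for its canonical transcript, and those of CLDN6 1739 against 1366. Canonical lengths would thus raise DNMT3B relative to CLDN6 by more than the gap between them, which places DNMT3B above CLDN6. The places of the other markers with those lengths were not tested. Of 7 vascular endothelial markers, KDR was in the high class, at 76.5 ± 1.71 TPM, and 6 were in the low class, among them PECAM1, at 0.288 ± 0.0833 TPM. No neural, mesendoderm, endoderm, trophectoderm or amnion, or fibroblast marker was in the high class. Of the 4 mesendoderm markers, 3 were in the medium class, namely MIXL1, EOMES and GSC, at 22.3 ± 5.66, 6.74 ± 1.92 and 6.21 ± 1.10 TPM. In replicate 1, MIXL1 was above the high-class boundary of 26.96 TPM, at 28.1 TPM. The neural, endoderm, and trophectoderm or amnion lists had 1 marker each in the medium class. Of the 6 fibroblast markers, COL1A2 and COL1A1 were in the medium class, at 25.6 ± 1.67 and 14.6 ± 1.43 TPM, and 4 were in the low class, down to LUM and DCN at 0.178 ± 0.156 and 0.0985 ± 0.00830 TPM. In replicate 3, COL1A2 was above the high-class boundary, at 27.5 TPM. The part of fibroblasts in the VIM and FN1 levels above was not tested. The summed level of the 6 neural markers was 17.0, 18.5 and 22.6 TPM in replicates 1, 2 and 3, of which MAP2 held most, and NEUROG2 was at 0. In bulk RNA, fewer cells of a type and less RNA per cell cannot be told apart.

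Whether a gene differed between libraries by more than counting error was asked with an exact two-sided binomial test of its count in 1 replicate among the counts of all 3, given the library totals of 10390984, 12024802 and 8655155 counts. P-values were adjusted by the Benjamini-Hochberg method over 18266 genes with at least 20 counts, which included 9 of the 10 genes but not CLDN5. The test compares libraries, not conditions. An adjusted p under 0.05 was reached by 0 of the 9 genes in replicate 1, against 3.59% of all genes tested, by 1 (CLDN6) in replicate 2, against 2.38%, and by 4 (CLDN6, CDH1, EPCAM and CLDN4) in replicate 3, against 11.1%. Deeply counted genes passed more often. In replicate 3, 32.3% of genes with at least 3000 counts passed, and 3 of the 5 genes described here with that depth, while among genes of 20 to 300 counts 3.23% passed, and CLDN4 but not CLDN3. Compared 2 libraries at a time, 5 of 9 genes passed between replicates 1 and 3 (CLDN3 besides the same 4), against 10.5% of all genes tested, 4 of 9 between replicates 2 and 3, against 9.02%, and 0 of 8 between replicates 1 and 2, against 1.32%.

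CLDN4 was higher in replicate 3 than in the others by 0.80 on the log2 scale (exact binomial test, adjusted p = 0.00162), the largest of the 4 differences. CLDN6 was higher by 0.15 (exact binomial test, adjusted p = 5.2e-09) and CDH1 by 0.10 (adjusted p = 0.00325, exact binomial test). EPCAM fell by 0.17 on the log2 scale (exact binomial test, adjusted p = 0.00611). The difference of CLDN3 was 1.29 on the log2 scale but rested on 37 counts in all and did not pass (exact binomial test, adjusted p = 0.0713). CDH2, CDH3, CLDN7 and CLDN10 did not pass in any replicate.

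Replicate 3 also differed from the others by base composition. Among genes with at least 300 counts, the median log2 difference of replicate 3 was -0.05 for genes of 40 to 45% exon GC, 0.09 for 55 to 60%, 0.22 for 60 to 65% and 0.33 for 65% or more. The exons of CLDN3, CLDN6 and CLDN4 have 69.2, 59.2 and 56.9% GC, and those of CDH1 and EPCAM 48.5 and 48.1%. When the expected share was taken from genes of like GC content (20 bins), 3.34%, 1.01% and 5.83% of all genes passed in replicates 1, 2 and 3, and 0, 0 and 2 of the 9 genes. The 2 were CLDN4, at 0.74 on the log2 scale (exact binomial test, adjusted p = 0.00675), and CDH1, at 0.13 (exact binomial test, adjusted p = 0.000108). CLDN6 was then at 0.01 (exact binomial test, adjusted p = 0.962), EPCAM at -0.14 (exact binomial test, adjusted p = 0.0507) and CLDN3 at 0.98 (exact binomial test, adjusted p = 0.303). CDH1 did not pass in replicate 3 with TMM factors (exact binomial test, adjusted p = 0.102) or DESeq2 size factors (exact binomial test, adjusted p = 0.143). CLDN7, with an exon GC content of 59.7%, near that of CLDN6, was at -0.00477 in replicate 3 before and -0.15 after this correction.

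**Figure D4:**
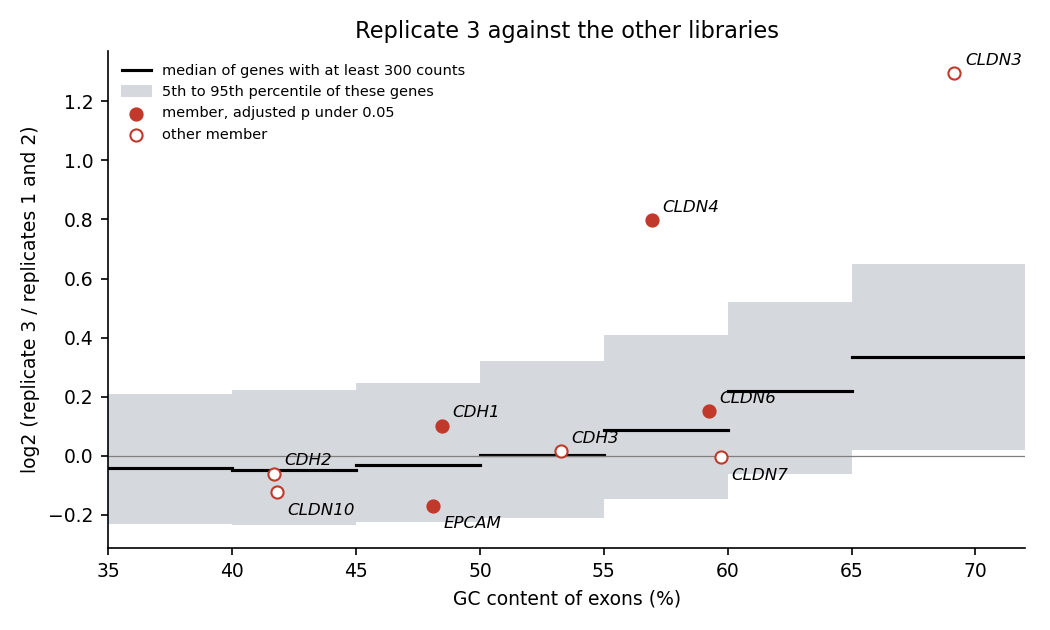
Difference of replicate 3 from the other replicates (log2, vertical axis) against exon GC content (percent, horizontal axis) with the median (black lines) and the 5th to 95th percentile (grey) of genes with at least 300 counts, and with the named junction genes as filled points (adjusted p under 0.05) or open points (others). The median rises from -0.05 at 40 to 45% GC to 0.33 at 65% or more, CLDN3 and CLDN4 lie highest of the named genes, at 1.29 and 0.80, and EPCAM lies lowest, at -0.17.

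The summed levels of some marker lists were, like CLDN4 and CLDN3, at their highest or lowest in replicate 3. The summed level of the 5 trophectoderm or amnion markers was 7.42, 9.14 and 10.7 TPM, of which KRT7, a keratin of simple epithelia, held 5.67, 6.45 and 8.00 TPM, while CDX2 was at 0 in every replicate and GATA3 had 1.47, 1.95 and 1.59 TPM. The 4 mesendoderm markers summed to 44.1, 36.8 and 30.1 TPM, with MIXL1 at 28.1, 21.9 and 16.8 TPM and EOMES at 8.83, 6.33 and 5.05 TPM, whereas GSC and TBXT were not lowest in replicate 3. In replicate 3, KRT7 did not pass (log2 difference 0.42, exact binomial test, adjusted p = 0.235), and MIXL1 passed with the library totals (log2 difference -0.53, exact binomial test, adjusted p = 0.0387) but not with the GC correction (exact binomial test, adjusted p = 0.0547). The 4 endoderm markers summed to 14.2, 9.66 and 11.1 TPM and the 6 fibroblast markers to 43.2, 41.7 and 47.8 TPM. The part of these markers in the CLDN4 and CLDN3 levels was not tested.

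Genes on the opposite strand overlap the cadherins as well. A lncRNA antisense to CDH1 (ENSG00000260798) had 239 ± 8.89 TPM, one antisense to CDH2 (ENSG00000227279) 49.9 ± 2.64 TPM and CDH3-AS1 9.96 ± 2.05 TPM. Exons on the opposite strand covered 5.71, 3.58 and 8.40% of the exon length of CDH1, CDH2 and CDH3, while 61.7, 47.7 and 31.9% of the exon length of these antisense genes lay over exons on their opposite strand. The part of the reads of either strand in the counts of the other was not tested, for the cadherins and for the antisense genes alike. CLDN7 shares 10.8% of its exon length with a gene on its own strand (ENSG00000262302), on which no read was counted. Of the exon length of that gene, 100% lies over exons on its own strand, so its count does not show how shared reads were handled. The effect on the CLDN7 counts was not tested. CLDN3, CLDN4 and CLDN5 had no match of at least 75 bases and 95% identity among the transcripts of other genes.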

How the data were processed

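Total RNA of 3 replicates of untreated H9 cells was sequenced after ribosomal RNA removal. The deposited files hold raw counts per Ensembl gene, made by the authors. Their processing notes name Trim Galore 0.4.4, TopHat2 2.1.1 and Cufflinks 2.2.1, and reads were aligned to GRCh38, while no source used here names the counting tool, its strand setting or the annotation. Of 58051 genes, 56948 matched GENCODE 44 (GRCh38), and the 1103 others held 0.273 to 0.294% of counts. TPM was computed from the counts and merged exon length. Replicates were compared by exact binomial tests (scipy 1.17.1) with Benjamini-Hochberg adjustment, tested on simulated data. Normalization factors came from edgeR 4.0.16 and DESeq2 1.42.0, and similar transcripts from blastn 2.17.0. Named genes were all 10 junction genes, the 3 highest others of each family, up to 4 highest and 4 lowest of each list, and overlapping or adjacent genes. The rule takes the genes by name and uses no measured value, but it and the lists were chosen with earlier results of these data known. Alternatives varied gene length, scaling, filters, GC correction and replicates. 1 gene of a list is not reported here.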

Additional observations from a re-analysis of the deposited data

How the results depend on the processing

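The 6 genes in the high class stayed at 6 under every alternative run except classes over all genes, which gave 7. The share of CDH1 among the 3 cadherins was 52.8% with the longest or the canonical transcript as length and 56.0% from CPM, which leaves gene length out, and the share of CLDN6 among the 6 claudins was 88.3%, 88.3% and 86.4%. EPCAM was at 297 TPM with the longest transcript and 154 CPM. Other scalings moved none of these past 1 SD. Leaving out 1 replicate gave 59.9 to 61.0% for CDH1, 90.4 to 90.9% for CLDN6 and 245 to 262 TPM for EPCAM. With the GC correction, the number of genes beyond counting error was 0 in replicate 2 and 2 in replicate 3. Leaving out 1 replicate leaves a comparison of 2 libraries, so that the counts of the replicates are not separate results. They were 0 to 5 for replicate 1, 0 to 4 for replicate 2 and 4 to 5 for replicate 3, from 5 of 9 between replicates 1 and 3, 4 of 9 between replicates 2 and 3, and 0 of 8 between replicates 1 and 2, where CLDN3 had too few counts. Depth limits CLDN3 and CLDN5, with 37 and 6 counts in all. No paired analysis between groups was possible because all 3 samples form 1 group, so that no groups share replicate numbers.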

Other observations

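Other genes of the lists also differed in replicate 3, and those named here were chosen after their values were seen. CDH9, a neural cadherin, had 7, 13 and 27 counts in replicates 1, 2 and 3 (log2 difference 1.81, exact binomial test, adjusted p = 0.000637, and 0.00092 with the GC correction). CDH6 had 279, 373 and 326 counts (log2 difference 0.37, exact binomial test, adjusted p = 0.00344, and 0.000886 with the GC correction). The neural marker MAP2 was higher by 0.36 (exact binomial test, adjusted p = 0.000475, and 8.29e-05 with the GC correction). SOX2 was higher by 0.29 (exact binomial test, adjusted p = 1.1e-13, and 2.19e-15 with the GC correction). The repressor ZEB2, with 33, 39 and 52 counts, was higher by 0.90 (exact binomial test, adjusted p = 0.0122, and 0.0108 with the GC correction). The plakoglobin gene JUP was higher by 0.31 (exact binomial test, adjusted p = 5.41e-10) and by 0.11 with the GC correction (exact binomial test, adjusted p = 0.151). Other genes were lower in replicate 3. NANOG was at -0.17 (exact binomial test, adjusted p = 6.76e-07, and 0.00141 with the GC correction) and TDGF1 at -0.17 (exact binomial test, adjusted p = 5.3e-06, and 0.0061 with the GC correction). VCL was at -0.10 (exact binomial test, adjusted p = 0.00193), TJP1 at -0.12 (exact binomial test, adjusted p = 0.000834) and PRKCI at -0.15 (exact binomial test, adjusted p = 0.00417), and these 3 did not pass with the GC correction (exact binomial test, adjusted p = 0.268, 0.146 and 0.0853).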
